A study of Mus musculus with 12 samples.

Results

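The genes described are 9 genes of major histocompatibility complex (MHC) class I antigen presentation, chosen by name: the heavy chain genes H2-K1, H2-D1, H2-Q4 and H2-T23, the light chain gene B2m, the transporter genes Tap1 and Tap2, the loading factor gene Tapbp and the transactivator gene Nlrc5. The choice was made with earlier results of these data known. All 9 were found by symbol among the 24054 genes of the count table. All 9 passed the filter on low counts, which left 14876 genes for testing.

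Class I molecules show peptides from inside the cell to cytotoxic T cells and natural killer cells, and nearly every nucleated cell carries some of them. Proteasomes cut proteins into peptides, the TAP transporter moves the peptides into the endoplasmic reticulum, tapasin holds empty class I molecules at the transporter until a peptide binds, and the loaded heavy chain with its light chain goes to the surface. Interferons raise the transcription of most of these genes, and embryonic fibroblasts in culture are known for low class I levels that interferon can raise.

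Polyadenylated RNA was sequenced from primary mouse embryonic fibroblasts (MEF), cultured connective tissue cells taken from embryos, to learn how loss of the RecQ DNA helicases BLM and RECQL1 changes gene expression. There were 4 genotype groups with 3 libraries each: Blm -/- Recql -/- (labelled double KO here), Blm -/- (Blm KO), Recql -/- (Recql KO) and WT, which carries neither knockout. All groups were grown in the same serum-containing medium at reduced oxygen. The labels name no interferon or other agent for any group. The labels name neither the alleles nor the mouse strain, and they do not tie the libraries of a group to separate embryos, so p-values refer to the spread between these libraries. Every pair of libraries within a group differed by more than sampling noise (chi-square per degree of freedom 25.5 to 167), and libraries of each KO label differed in Y-linked transcripts.

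The promoters of the 4 heavy chain genes and B2m, which had the largest fold changes among the members with a promoter in the RefSeq table, are shown because class I genes are known to be controlled by short elements just before the start. The RefSeq table (build GRCm38.p6, equal to mm10 in coordinates) held 7 of the 9 members, each with 250 bases before and 50 bases after the transcription start, and Tap2 and Nlrc5 are named only. On build GRCm38.p6 the windows are chr17:34000298-34000597 on the minus strand for H2-K1, chr17:35262844-35263143 on the plus strand for H2-D1, chr17:35379367-35379666 on the plus strand for H2-Q4, chr17:36032652-36032951 on the minus strand for H2-T23 and chr2:122147437-122147736 on the plus strand for B2m. Each is written 5′ to 3′ along its gene, and capitals mark every match on either strand to one of the motifs named after the sequences.
H2-K1: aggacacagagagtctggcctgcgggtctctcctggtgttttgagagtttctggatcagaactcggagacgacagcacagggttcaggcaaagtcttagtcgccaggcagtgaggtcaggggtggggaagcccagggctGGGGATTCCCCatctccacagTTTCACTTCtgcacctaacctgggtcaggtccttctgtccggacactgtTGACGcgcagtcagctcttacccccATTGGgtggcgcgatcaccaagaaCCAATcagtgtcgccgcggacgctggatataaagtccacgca
H2-D1: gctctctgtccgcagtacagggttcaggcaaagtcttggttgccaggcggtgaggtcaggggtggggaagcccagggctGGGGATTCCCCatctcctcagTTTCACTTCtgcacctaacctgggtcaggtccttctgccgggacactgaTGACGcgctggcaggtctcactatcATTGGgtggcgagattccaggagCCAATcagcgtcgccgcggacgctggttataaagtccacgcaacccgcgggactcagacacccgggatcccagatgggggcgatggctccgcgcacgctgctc
H2-Q4: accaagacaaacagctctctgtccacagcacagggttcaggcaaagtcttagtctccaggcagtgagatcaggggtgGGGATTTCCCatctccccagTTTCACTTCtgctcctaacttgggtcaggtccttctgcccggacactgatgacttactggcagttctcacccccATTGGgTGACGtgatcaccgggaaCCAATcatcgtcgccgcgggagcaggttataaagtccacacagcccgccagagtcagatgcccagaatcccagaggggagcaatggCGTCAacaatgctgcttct
H2-T23: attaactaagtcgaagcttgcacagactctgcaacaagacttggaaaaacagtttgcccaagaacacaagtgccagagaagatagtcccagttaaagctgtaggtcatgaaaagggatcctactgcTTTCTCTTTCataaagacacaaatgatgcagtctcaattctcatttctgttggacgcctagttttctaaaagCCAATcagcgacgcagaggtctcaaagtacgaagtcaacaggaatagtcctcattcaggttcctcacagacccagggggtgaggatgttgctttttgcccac
B2m: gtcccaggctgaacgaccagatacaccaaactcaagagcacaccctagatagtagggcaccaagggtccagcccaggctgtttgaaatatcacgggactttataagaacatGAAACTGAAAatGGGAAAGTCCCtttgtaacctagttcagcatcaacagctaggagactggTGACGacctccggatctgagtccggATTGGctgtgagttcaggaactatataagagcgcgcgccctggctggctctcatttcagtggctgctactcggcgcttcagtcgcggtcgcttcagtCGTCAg

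The 6 motifs searched on both strands were the core of the interferon-stimulated response element (GAAA, any 2 bases, GAAA), TTTCACTTC, the interferon consensus sequence of class I promoters, TTCNNNGAA, the gamma-activated site, an NF-kB site (GGGA, any 4 bases, CC), ATTGG, the inverted CCAAT box, and TGACG, part of a cAMP response element. TTTCACTTC was added after the promoters had been read, so its presence in them was known and the share of all promoters is no test for it. It stood in 3 of the 7 promoters, those of H2-K1, H2-D1 and H2-Q4, beginning 90, 150 and 153 bases before the start, against 0.522% of 27025 promoters of the same length. The response element core was found in the promoters of H2-T23 and B2m, beginning 124 and 139 bases before the start, against 3.49% of all promoters. The NF-kB motif matched in 4 of the 7, those of H2-K1, H2-D1, H2-Q4 and B2m (20.5% of all promoters), TGACG in 5 of 7 (21%) and ATTGG in 7 of 7 (37.9%). In H2-K1 and H2-D1 a single stretch gave overlapping NF-kB matches on both strands, which is also the case in B2m, and in H2-Q4 the match is the same stretch on both strands. TTCNNNGAA was in 0 of the 7 windows, against 8.47% of all promoters. The H2-D1 and H2-Q4 windows were 74.7% identical after alignment, H2-K1 and H2-D1 59.3% and H2-K1 and H2-Q4 56.2%, while the other pairs of members lay between 43.9% and 50.5%. Gaps counted as differences in these values. TTTCACTTC begins 90 bases before the start in H2-K1, against 150 and 153 in H2-D1 and H2-Q4, so the H2-K1 window is shifted. That shift lowers the identity of the H2-K1 pairs, and these values do not rank the promoters by likeness. A match describes these letters and does not show that a factor binds there.

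Library totals ranged from 47758552 to 59296354 expected counts, the estimated read counts of the program RSEM. Levels are given as CPM, the count scaled to a common library size, after trimmed mean of M values (TMM) scaling. All 10 fibroblast markers were detected in every library. Blm stood at 3.85 to 6.99 CPM in libraries labelled double KO, 3.18 to 5.64 in Blm KO, 14.3 to 16.4 in libraries labelled Recql KO and 18.6 to 21.9 in WT. Recql was not lowered where its loss is labelled, with 18.7 to 35.6 CPM in libraries labelled double KO and 21.7 to 29.8 in those labelled Recql KO, against 25.7 to 29.3 in WT (-0.07 and -0.13 on the log2 scale, adjusted p = 0.928 and 0.642 by edgeR). Counts per gene cannot tell an intact transcript from one of a disrupted allele, so Recql KO and double KO serve as library names, and directions given for them depend on the labels being right. Y-linked transcripts summed to 229 to 257 CPM in the 3 WT libraries, and to over 100 CPM in only 1 library of each KO label, so comparisons with WT are in part confounded with sex. Xist, the RNA of the inactive X chromosome, stood at 309.6 CPM beside 28.7 CPM of Y-linked transcripts in Recql KO replicate 2. Double KO replicate 2 and Blm KO replicate 1 also held both, with 10.3 and 11.7 CPM of Xist, against at most 3.08 CPM in WT. One further library stood apart for the genes described here. Double KO replicate 1 lay above both other double KO libraries and above all WT libraries for 9 of 9 members, as it did for 14% of all tested genes. The members' calls and medians that involve it are given with and without it. Since it stood apart by being high in these members, leaving it out must lower their double KO levels. It also narrows the range of that group, so calls gained without it are no separate support.

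Relative to WT, the libraries labelled Recql KO held more RNA of nearly the whole class I set. The 4 heavy chains together stood at 828, 975 and 1180.0 CPM in libraries labelled Recql KO and at 113, 147 and 114 in WT, a mean 7.98-fold higher (994 ± 177 against 125 ± 19.7 CPM, SD, n = 3 each). The light chain gene B2m was 4.66-fold higher, Tap1 and Tap2 were 2.43-fold and 2.54-fold higher, and the transactivator gene Nlrc5 was 8.79-fold higher. By edgeR's quasi-likelihood test with Benjamini-Hochberg (BH) adjustment over all genes, 8 of the 9 members were called higher at an adjusted p under 0.05 and none lower, where 29.9% of all tested genes were called and 14.2% were called higher. Tapbp was the member not called. All 3 libraries labelled Recql KO lay above all 3 WT libraries for 9 of 9 members, which held for 23.9% of all genes. The median log2 fold change was 2.22 over the members and -0.01 over all genes. In RNA from whole cultures, more cells that express a gene and more RNA of it in each cell cannot be told apart.

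**Figure D1:**
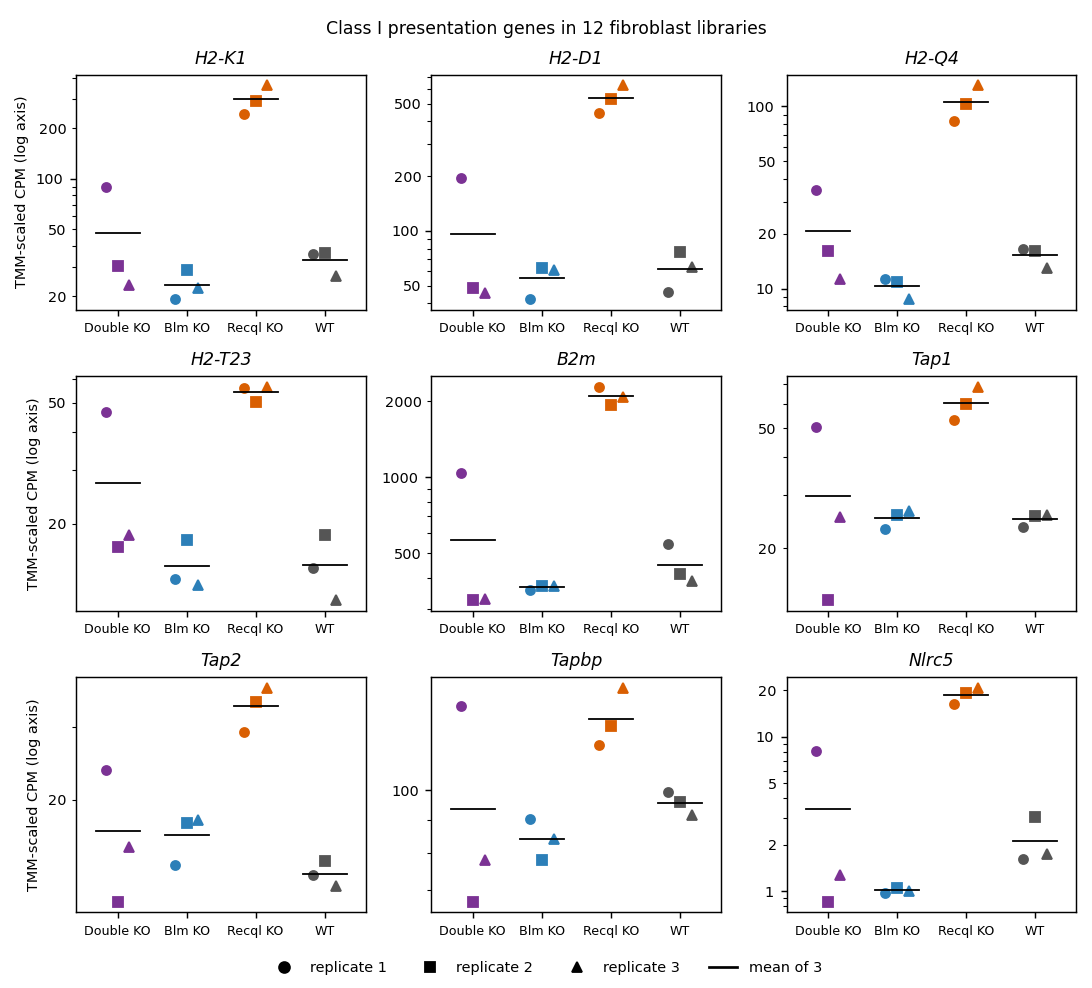
TMM-scaled CPM (log axis, a different range in each panel) of the 9 members in the 12 libraries, by genotype label, with 1 symbol per replicate and a line at the mean of 3 libraries. The libraries labelled Recql KO are highest in every panel except that double KO replicate 1 reaches 135 CPM for Tapbp, inside the 118 to 144 CPM of Recql KO.

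H2-K1 encodes one of the classical heavy chains that present peptides to CD8 T cells (mm10 chromosome 17, 33996017 to 34000347, minus strand). Its level was 243, 293 and 362 CPM in libraries labelled Recql KO, against 35.4, 36.2 and 26.5 CPM in WT. The lowest of the libraries labelled Recql KO was several times the highest WT library. The log2 fold change was 3.19 ± 0.45 (SE, edgeR adjusted p = 0.001), or 9.15-fold, which ranked 108 among the 14876 tested genes.

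H2-D1, the other classical heavy chain gene among the members (chromosome 17, 35262730 to 35267499), had 446, 529 and 631 CPM in libraries labelled Recql KO, against 46.3, 76.6 and 63.0 CPM in WT. The groups did not overlap, and the log2 fold change was 3.11 ± 0.52 (SE, edgeR adjusted p = 0.0021). H2-Q4, a non-classical heavy chain gene of the Q region (35379617 to 35385290), had 83.1, 104 and 131 CPM in libraries labelled Recql KO, against 16.6, 16.1 and 12.9 CPM in WT. It also separated the groups, with a log2 fold change of 2.80 ± 0.36 (edgeR adjusted p = 0.000694). These 3 genes hold the TTTCACTTC motif in the promoters printed above and share a run of 21 identical bases there, acagggttcaggcaaagtctt.

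H2-T23 encodes Qa-1, a non-classical heavy chain that presents leader peptides of other class I chains to natural killer cell receptors (chromosome 17, 36029773 to 36032855, minus strand). It was measured at 55.9, 50.2 and 56.5 CPM in libraries labelled Recql KO, against 14.3, 18.4 and 11.2 CPM in WT. Its rise was the smallest of the 4 heavy chains, with a log2 fold change of 1.89 ± 0.35 (edgeR adjusted p = 0.00378), and the 3 libraries labelled Recql KO lay close together.

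Reads of the heavy chains can be shared with relatives. Of the 50-base words in the longest coding transcript, 8.79% in H2-K1, 14.3% in H2-D1, 24.3% in H2-Q4 and 28.8% in H2-T23 occurred in another gene, against none in B2m or Nlrc5. Expected counts of the 4 heavy chains were not whole numbers in any of the 12 libraries, as was also the case for B2m and Tapbp. The split of reads among the heavy chains is uncertain. Summed over all 25 H2 heavy chain genes listed, where that split matters less, the level was 1218 ± 196 CPM in libraries labelled Recql KO, against 177 ± 29.2 CPM in WT (SD, n = 3 each), a ratio of 6.90.

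B2m encodes beta-2-microglobulin, the light chain that all these heavy chains need to reach the surface (chromosome 2, 122147686 to 122153083). It was read at 2282, 1932 and 2069 CPM in libraries labelled Recql KO, against 543, 415 and 389 CPM in WT. The lowest library labelled Recql KO was above 3 times the highest WT library, and the log2 fold change was 2.22 ± 0.39 (SE, edgeR adjusted p = 0.00265).

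Tap1 and Tap2 encode the subunits of the peptide transporter, which works only as a pair (chromosome 17, 34187553 to 34197225 and 34203527 to 34216321). Tap1 had 53.0, 60.2 and 68.6 CPM in libraries labelled Recql KO, against 23.5, 25.6 and 25.7 CPM in WT. Tap2 had 29.2, 34.4 and 37.2 CPM in libraries labelled Recql KO, against 13.1, 14.2 and 12.4 CPM in WT. Both genes separated the groups, with log2 fold changes of 1.28 ± 0.35 for Tap1 (edgeR adjusted p = 0.0202) and 1.35 ± 0.22 for Tap2 (edgeR adjusted p = 0.00209). The call for Tap1 was lost with the Y-linked level added as covariate (edgeR adjusted p = 0.0574) and without replicate 2 or 3 of Recql KO or replicate 1 or 3 of WT (edgeR adjusted p = 0.0515 to 0.061). Tap1 overlaps Psmb9 on the opposite strand, and the strand setting of the counts was not given in the sources used here.

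Tapbp encodes tapasin, which bridges the transporter and the empty class I molecule (chromosome 17, 33915899 to 33929292). Its level was 118, 126 and 144 CPM in libraries labelled Recql KO, against 99.4, 95.9 and 91.4 CPM in WT. Although the groups did not overlap, the log2 fold change of 0.43 ± 0.21 did not pass the test (SE, edgeR adjusted p = 0.141). It passed without double KO replicate 1 (0.44, edgeR adjusted p = 0.0106) and in a fit on Recql KO and WT alone (0.43, edgeR adjusted p = 0.0134).

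Nlrc5 encodes a protein of the NLR family that drives transcription of class I genes from their promoters (chromosome 8, 94434356 to 94527272). It stood at 16.2, 19.2 and 20.7 CPM in libraries labelled Recql KO, against 1.61, 3.01 and 1.74 CPM in WT. Its fold was among the 3 largest of the members, with a log2 fold change of 3.14 ± 0.69 (SE, edgeR adjusted p = 0.00809). All its counts were whole in the 12 libraries, and none of its 50-base words occurred in another gene.

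**Figure D2:**
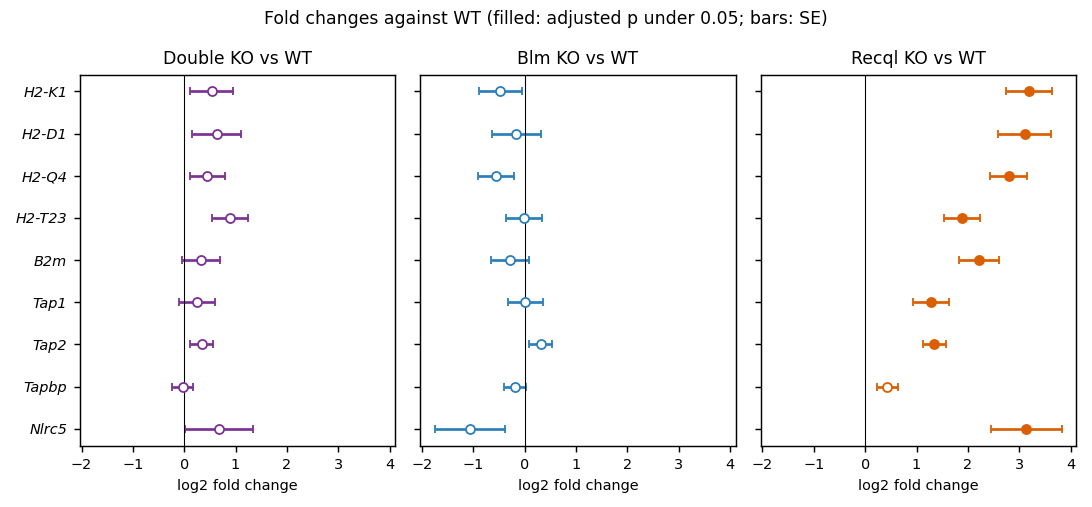
Log2 fold changes of the 9 members against WT in libraries labelled double KO, Blm KO and Recql KO, with bars for the SE of the fit and filled symbols for an edgeR adjusted p under 0.05. In the Recql KO panel 8 members are filled, from 1.28 for Tap1 to 3.19 for H2-K1, and no symbol is filled in the panels of double KO and Blm KO.

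Levels of different genes were compared per kilobase of merged exons. In libraries labelled Recql KO the order in mean CPM per kb was B2m (2435 ± 205), H2-D1 (255 ± 44.2), H2-K1 (181 ± 36.1), H2-Q4 (58.96 ± 13.3), Tapbp (44.5 ± 4.69), H2-T23 (36.8 ± 2.36), Tap1 (20.5 ± 2.64), Tap2 (9.77 ± 1.18) and Nlrc5 (2.30 ± 0.282; SD, n = 3). In WT, Tapbp at 33.0 ± 1.38 CPM per kb stood next to B2m at 522 ± 96.2, above H2-D1 at 29.5 ± 7.20 and H2-K1 at 19.8 ± 3.27 (SD, n = 3). Tapbp and H2-D1 in WT lay within their SDs of each other, as did H2-T23 (9.94 ± 2.45), H2-Q4 (8.48 ± 1.10) and Tap1 (8.45 ± 0.427). Nlrc5 was lowest in both, at 0.261 ± 0.0951 CPM per kb in WT.

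Markers of other cells were set beside these values. Of 12 leukocyte markers, 11 were in the table, and they summed to 4.39 to 8.35 CPM in libraries labelled Recql KO, against 6.65 to 19.5 CPM in WT. Of the 9 tested, 2 were called lower in libraries labelled Recql KO, Cd68 and Lyz2, and none higher, where 29.9% of all genes were called. Csf1r went the other way without a call, at a mean of 1.89 CPM in libraries labelled Recql KO and 1.26 CPM in WT. Cd3e never exceeded 1 count, and Tyrobp was at 0 in at least 1 library labelled Recql KO. Epithelial markers summed to 9.56 to 14.7 CPM in libraries labelled Recql KO and 23.3 to 46.3 CPM in WT, and endothelial markers to 58.8 to 67.4 and 80.6 to 87.7 CPM. The 10 fibroblast markers summed to 12247 to 15755 CPM in libraries labelled Recql KO, against 23897 to 25395 CPM in WT, with Col1a1, Col1a2 and Col3a1 lower and the decorin gene Dcn higher. Col1a1 led that sum, at means of 5541 CPM in Recql KO and 10006 CPM in WT, so the sum does not measure the share of fibroblasts. Of the 10 log2 fold changes, 3 were positive and 7 negative. The part of these differences in the class I result was not tested. Restricting the fit to libraries with over 100 CPM of Y-linked transcripts left a single library of each KO label, whose spread was then taken from WT. Calls for Recql KO against WT from that fit are therefore not given, and no member's log2 fold change changed sign there. Across the alternatives other than leaving out a library, that fit among them, the values lay between 2.82 and 3.24 for H2-K1 and between 0.30 and 0.44 for Tapbp. The part of sex in the class I result was not tested.

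Compared with the libraries labelled Recql KO, those labelled double KO, which share the Recql label and add the Blm knockout, had less class I RNA. The summed level of the 4 heavy chains was 365, 111 and 98.2 CPM in libraries labelled double KO, against 828, 975 and 1180.0 CPM in those labelled Recql KO. By edgeR with BH adjustment, 6 of 9 members were called lower and none higher, where 24.7% of all genes were called and 11.6% were called lower. For 8 of 9 members all libraries labelled double KO lay below all libraries labelled Recql KO, which held for 21.1% of all genes, and the exception was Tapbp. The members' median log2 fold change was -1.89, against 0.02 over all genes.

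H2-K1 had 89.2, 30.1 and 23.1 CPM in libraries labelled double KO, against 243, 293 and 362 CPM in those labelled Recql KO, and fell by 2.66 ± 0.44 on the log2 scale (SE, edgeR adjusted p = 0.00242). H2-D1, at 195, 48.6 and 45.3 CPM in libraries labelled double KO, fell by 2.48 (edgeR adjusted p = 0.00632), and H2-Q4, at 34.95, 16.1 and 11.4 CPM, fell by 2.35 (edgeR adjusted p = 0.00156). In each of these heavy chains replicate 1 was the high double KO library and still lay below every library labelled Recql KO.

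B2m had 1034, 326 and 329.9 CPM in libraries labelled double KO and fell by 1.89 ± 0.38 on the log2 scale relative to those labelled Recql KO (SE, edgeR adjusted p = 0.0062). Tap2, at 23.6, 11.3 and 15.4 CPM in libraries labelled double KO, fell by 1.00 ± 0.22 (edgeR adjusted p = 0.00924). Nlrc5 had 8.07, 0.860 and 1.28 CPM in libraries labelled double KO and fell by 2.46 ± 0.67 (edgeR adjusted p = 0.0234), a call lost without double KO replicate 3 (edgeR adjusted p = 0.0698), without Recql KO replicate 2 or 3 (0.0585 and 0.0539) and in a fit on these 2 labels alone (0.0833). All 3 genes moved in the direction of the heavy chains, and again replicate 1 was the high double KO library.

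H2-T23 had 46.5, 16.8 and 18.4 CPM in libraries labelled double KO, and its log2 fold change of -0.99 ± 0.35 against Recql KO did not pass (SE, edgeR adjusted p = 0.0579). Tap1, at 50.2, 13.5 and 25.4 CPM, had -1.03 ± 0.35 (edgeR adjusted p = 0.0523), and Tapbp, at 135, 67.2 and 78.0 CPM, had -0.47 ± 0.21 (edgeR adjusted p = 0.128). Without double KO replicate 1 all 9 members were called lower than in libraries labelled Recql KO, with log2 fold changes between -4.13 for Nlrc5 and -0.84 for Tapbp. That library was the highest of its group for every member, so lower values without it were fixed beforehand. DESeq2 called 8 of 9. The shares of all genes called in these settings are not given here. Fibroblast markers, a sum led by Col1a1, came to 29227 to 33411 CPM in libraries labelled double KO, against 12247 to 15755 CPM in those labelled Recql KO. Leukocyte markers summed to 6.98 to 17.7 against 4.39 to 8.35 CPM. The part of these markers in the difference was not tested.

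**Figure D3:**
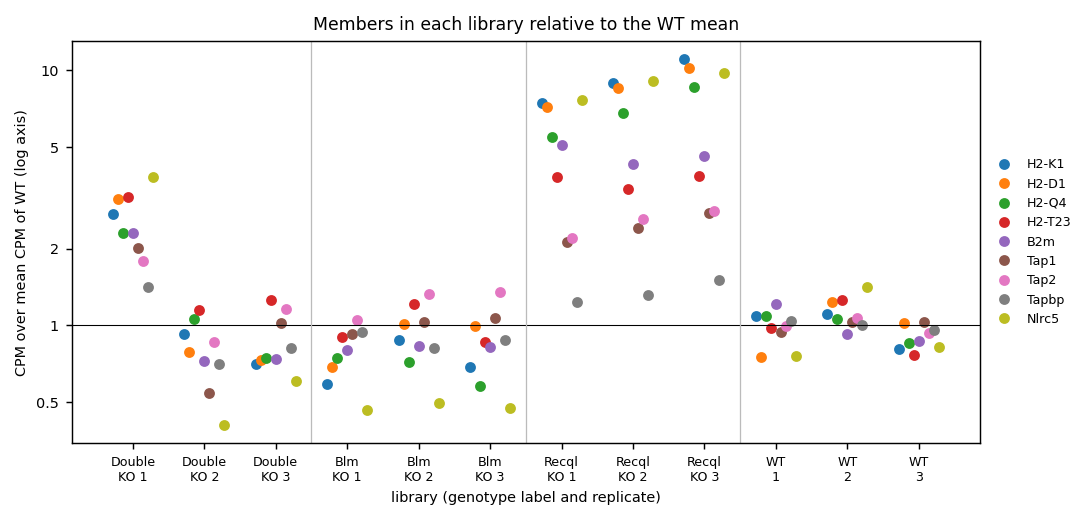
CPM of each member over its mean in WT (log axis) in each of the 12 libraries, by genotype label and replicate, with 1 colour per gene. The median over the 9 members is 2.30 in double KO replicate 1, against 0.783 and 0.747 in the other double KO libraries, and 4.30 to 5.08 in libraries labelled Recql KO.

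Double KO replicate 1 differed from its group most for Nlrc5, at 7.55 times the mean of the other 2 libraries, and least for Tap2, at 1.76 times. Its H2-D1 level was 4.14 times and its B2m level 3.15 times that mean. Leukocyte markers summed to 17.7 CPM in this library, against 8.15 and 6.98 CPM in the other double KO libraries, while WT replicate 2, at 19.5 CPM, lay higher still with a median member ratio of 1.07 to the WT mean. Stat2, a signal transducer of interferon receptors, stood at 86.3 CPM in double KO replicate 1, against 21.8 and 15.2 CPM in the others. The part of these differences in the class I levels of that library was not tested.

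Whether the Recql label went with a different change with and without the Blm knockout was tested as an interaction, the log2 difference of double KO from Blm KO minus that of Recql KO from WT. Each of the 9 estimates was negative, with a median of -1.39 against 0.01 over all genes. H2-K1 (-2.18 ± 0.59 SE, edgeR adjusted p = 0.0432), H2-Q4 (-1.79 ± 0.48, edgeR adjusted p = 0.0422) and Tap2 (-1.32 ± 0.31, edgeR adjusted p = 0.027) were called, or 3 of 9 members, where 10.4% of all genes were called and 4.58% in this direction. The other 6 did not pass, and H2-D1 (-2.32, edgeR adjusted p = 0.0564) and B2m (-1.60, edgeR adjusted p = 0.0774) were nearest. The number of called members was 9 without double KO replicate 1, a removal that lowers every double KO mean of the members and so each estimate. It was 5 by DESeq2 and 1 with the Y-linked level added as covariate. It was 0 without replicate 2 or 3 of Blm KO, replicate 2 or 3 of Recql KO or any 1 of the WT libraries. The 10.4% of all genes belongs to the fit on all 12 libraries, and shares under these settings are not given here.

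In libraries labelled double KO, no class I gene passed the test against WT. The 4 heavy chains summed to 192 ± 150 CPM in double KO and 125 ± 19.7 CPM in WT (SD, n = 3 each), and to a mean of 105 CPM without double KO replicate 1. By edgeR 0 of 9 members were called, where 0.121% of all genes were, and DESeq2 also called 0. The double KO libraries overlapped WT for every member. The members' median log2 fold change was 0.45, against 0.01 over all genes, and H2-T23 was the 1 member with an unadjusted p under 0.05, which 10.8% of all genes had (0.89 ± 0.35 SE, edgeR adjusted p = 0.394). The direction rested on 1 library: without double KO replicate 1, 7 of 9 log2 fold changes were negative, with a median of -0.36, and none was called. For H2-D1 the value was -0.40 without that library and 0.63 with it, and for Nlrc5 -0.99 and 0.68. Double KO and Recql KO were each set against the same WT libraries, so these comparisons are not independent of each other.

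**Figure D4:**
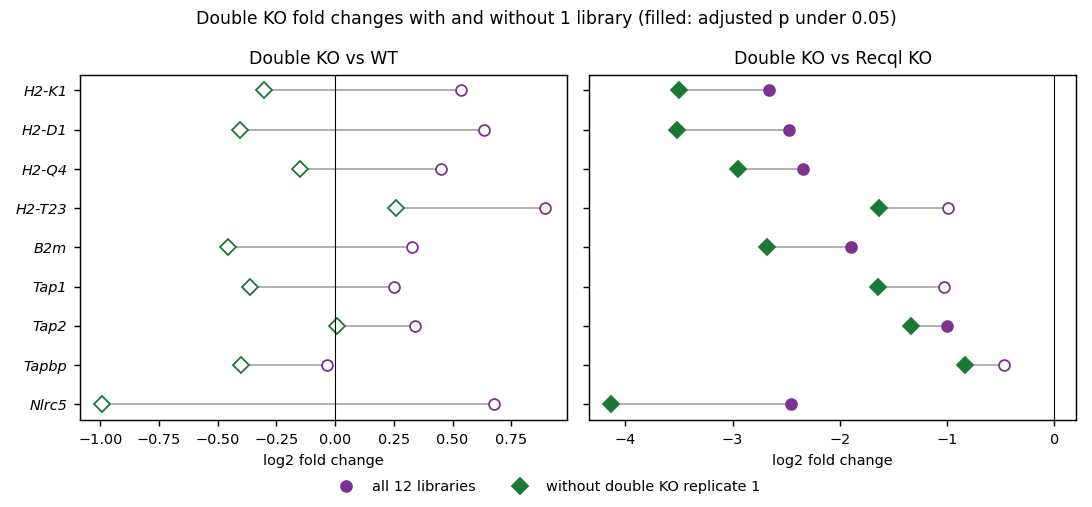
Log2 fold changes of the 9 members in libraries labelled double KO against WT (left) and against Recql KO (right), with all 12 libraries (circles) and without double KO replicate 1 (diamonds), and filled symbols for an edgeR adjusted p under 0.05. Against WT, 7 diamonds lie below 0 and no symbol is filled. Against Recql KO, 6 circles and 9 diamonds are filled.

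Double KO and Blm KO were compared to ask what goes with the Recql label where Blm is also knocked out. No member was called by edgeR (0 of 9, where 1.96% of all genes were called), 4 had an unadjusted p under 0.05, as had 23.3% of all genes, and DESeq2 called 2. H2-Q4 was the member whose libraries did not overlap, with 34.95, 16.1 and 11.4 CPM in double KO, against 11.3, 10.9 and 8.79 CPM in Blm KO, which 12% of all genes showed in this direction. Its log2 fold change was 1.01 ± 0.34 (SE, edgeR adjusted p = 0.131; DESeq2 adjusted p = 0.0308), and it passed in edgeR without double KO replicate 3 (1.31, edgeR adjusted p = 0.0474). Nlrc5 had a log2 fold change of 1.74 ± 0.69 (edgeR adjusted p = 0.17; DESeq2 adjusted p = 0.0487) and 0.07 without double KO replicate 1. H2-K1 (1.02) and H2-T23 (0.91) were the others with an unadjusted p under 0.05, and both missed the adjusted threshold (edgeR adjusted p = 0.184 and 0.16). Without double KO replicate 1 the values were 0.41 for H2-Q4, 0.18 for H2-K1 and 0.28 for H2-T23, and over the members 5 of 9 were negative, with a median of -0.16 and none called, where the median with that library was 0.79.

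No member passed the test in Blm KO against WT, and the estimates ran in both directions, from -1.06 for Nlrc5 to 0.31 for Tap2. By edgeR 0 of 9 were called, where 0.753% of all genes were, with 0 at an unadjusted p under 0.05, which 18.9% of all genes had, and 0 by DESeq2. Without double KO replicate 1, again none was called by edgeR, 7 of 9 estimates were negative, and 4 had an unadjusted p under 0.05. The share of all genes in that fit is not given here. The median log2 fold change was -0.18 over the members and 0.00 over all genes. H2-Q4, B2m, Tapbp and Nlrc5 lay below WT without overlap, 4 of 9 members where 12.1% of all genes did so. Nlrc5, with the widest difference, had 0.983, 1.05 and 1.01 CPM in Blm KO, against 1.61, 3.01 and 1.74 CPM in WT, a log2 fold change of -1.06 ± 0.69 (SE, edgeR adjusted p = 0.418). B2m had 358, 372 and 370.5 CPM in Blm KO, against 543, 415 and 389 CPM in WT (-0.29 ± 0.37, edgeR adjusted p = 0.697). For both genes the 3 Blm KO libraries were close together and the WT libraries spread more. The SEs came from 1 fit over all 12 libraries, in which double KO had the largest SD (408 CPM for B2m, 4.05 CPM for Nlrc5). Without double KO replicate 1, which is not in this comparison, edgeR adjusted p was 0.244 for B2m and 0.0996 for Nlrc5.

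Other genes of the pathway, in lists chosen by role with earlier results of these data known, were read in the same fits. Shares of all genes given beside the lists hold for the edgeR fit on all 12 libraries. They do not hold for DESeq2 or for fits without double KO replicate 1. Of 28 listed relatives of the class I heavy chain, 27 were found and 17 passed the filter on low counts. Of the 17 tested, 11 were higher and none lower in libraries labelled Recql KO relative to WT, where 14.2% of all genes were called higher. The median log2 fold change of the 17 was 2.03. H2-Q8 averaged 7.67 CPM in libraries labelled Recql KO and 0.031 CPM in WT, and H2-Q6 1.92 and 0.082 CPM. Genes this low in the other groups pass the filter through Recql KO and can only be called higher there. The counts of called relatives in comparisons with Recql KO are therefore in part set by the filter. H2-T10, a non-classical heavy chain gene of the T region, had 8.41, 11.96 and 10.5 CPM in libraries labelled Recql KO, against 0.961, 0.640 and 0.588 CPM in WT (14.1-fold, edgeR adjusted p = 0.00025). H2-T22, a ligand of gamma-delta T cells, was 4.51-fold higher (edgeR adjusted p = 0.00103), H2-T9 3.31-fold (0.000662), and Procr, a class I-like receptor for protein C, 4.09-fold (0.000375). In double KO relative to Recql KO, 12 of the 17 were lower and none higher, where 11.6% of all genes were called lower. Among the lower relatives were H2-T10 (-2.98, edgeR adjusted p = 0.000605), Procr (-1.58, edgeR adjusted p = 0.00114) and H2-T9 (-1.35, edgeR adjusted p = 0.00206). H2-Q6, at 0, 0.0702 and 0.0183 CPM in double KO, against 3.00, 1.43 and 1.33 CPM in Recql KO, was also lower (edgeR adjusted p = 0.00277). Of the 17, 0 were called in double KO or in Blm KO against WT by edgeR, with 1 and 2 at an unadjusted p under 0.05 and 0 and 1 called by DESeq2. Over all genes edgeR called 0.121% and 0.753%, and 10.8% and 18.9% had an unadjusted p under 0.05. H2-T10, H2-T9, H2-T22 and H2-Q6 have near-identical relatives, so their counts are uncertain. Without double KO replicate 1 the counts of lower genes against Recql KO were 13 of 17 heavy chain relatives, 6 of 13 interferon receptor and kinase genes and 2 of 7 class II genes, and in none of the role lists was a gene called in double KO against WT.

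Among 8 genes of the immunoproteasome and the PA28 activator, 3 were higher and none lower in libraries labelled Recql KO relative to WT, where 14.2% of all genes were called higher. The list's median log2 fold change was 0.29. Psmb8, a catalytic subunit that interferon brings into the proteasome, had 14.0, 19.4 and 22.9 CPM in libraries labelled Recql KO, against 4.07, 4.34 and 1.31 CPM in WT (5.79-fold, edgeR adjusted p = 0.0125). Psmb9, another inducible subunit, was 4.35-fold higher (edgeR adjusted p = 0.0206), and Psme2b, a copy of the PA28 beta gene Psme2 whose split of reads with it is uncertain, 7.10-fold (0.0186). Psmb10, Psme1 and Psme2 did not pass, with log2 fold changes of 0.38, -0.22 and 0.06 (edgeR adjusted p = 0.194, 0.301 and 0.802). The constitutive subunits that the inducible ones replace, Psmb5, Psmb6 and Psmb7, had log2 fold changes between -0.16 and 0.02, with 0 of 3 called by edgeR or DESeq2 and 1 at an unadjusted p under 0.05. Psmb8, Psmb9 and Psmb10 also did not pass in double KO against WT (0.96, 0.48 and -0.04, edgeR adjusted p = 0.613, 0.816 and 0.964) or in Blm KO against WT (-1.22, 0.08 and -0.59, edgeR adjusted p = 0.315, 0.956 and 0.181). In double KO relative to Recql KO edgeR called 0 of the 8, where 24.7% of all genes were called. Of the 8, 3 had an unadjusted p under 0.05, 2 were called by DESeq2, and 3 were called lower without double KO replicate 1. Shares of all genes at an unadjusted p under 0.05 or by DESeq2 in comparisons that involve Recql KO are not given here. For double KO against WT the list had 0 of 8 at an unadjusted p under 0.05 and 0 by DESeq2, and for Blm KO 1 and 0. The shares of all genes at an unadjusted p under 0.05 were 10.8% and 18.9%.

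Of 11 genes for peptide trimming and for folding and loading in the endoplasmic reticulum, none was higher and 2 were lower in libraries labelled Recql KO relative to WT. In that comparison 29.9% of all genes were called. The 2 lower genes were Calr, the chaperone calreticulin (log2 fold change -0.48, edgeR adjusted p = 0.00954), and Hspa5, the chaperone BiP (-0.73, edgeR adjusted p = 0.000688). In double KO relative to Recql KO, Hspa5 was higher (0.49, edgeR adjusted p = 0.00468) and Lnpep, an aminopeptidase that trims peptides for cross-presentation, was lower (-0.46, edgeR adjusted p = 0.00849). Of all genes, 24.7% were called there. In double KO and Blm KO against WT edgeR called 0 of the 11, with 2 and 4 at an unadjusted p under 0.05 and 0 and 1 by DESeq2. Of all genes, 10.8% and 18.9% had an unadjusted p under 0.05 there.

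**Figure D5:**
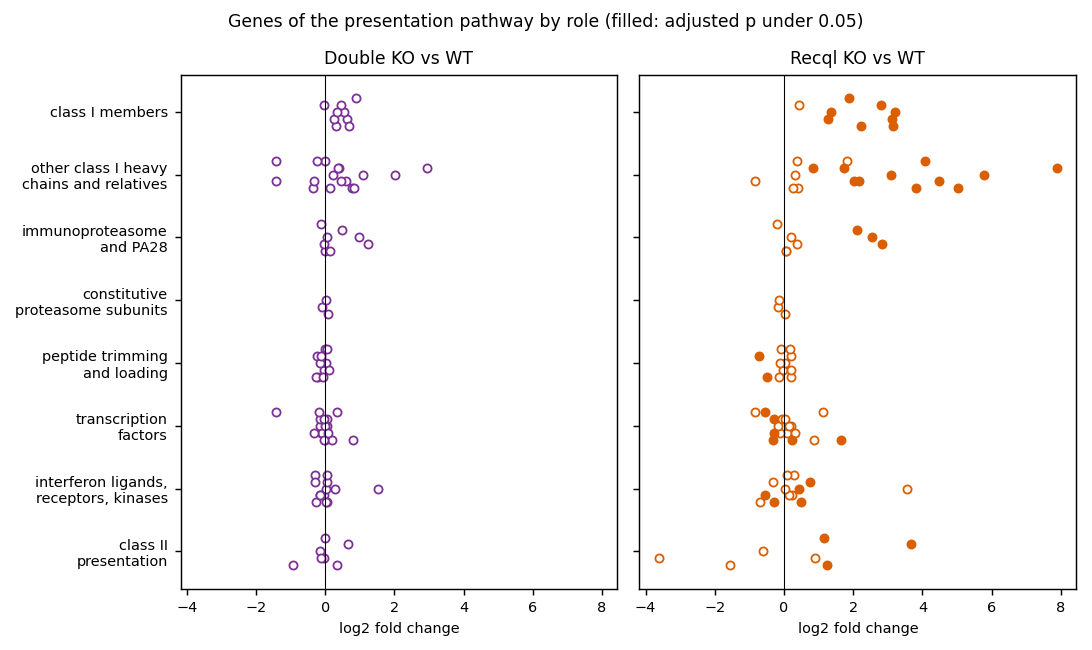
Log2 fold changes against WT of the tested genes in 8 role lists, in libraries labelled double KO (left) and Recql KO (right), with filled symbols for an edgeR adjusted p under 0.05. In the Recql KO panel the filled symbols of the heavy chain relatives and of the immunoproteasome lie above 0, while no symbol is filled in the double KO panel.

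Transcription factors of class I genes were called about as often as genes at large. Of 17 tested, 2 were higher and 4 lower in libraries labelled Recql KO relative to WT, where 29.9% of all genes were called, with a median log2 fold change of 0.04. Stat2 was 3.16-fold higher (edgeR adjusted p = 0.0419) and Rela, a subunit of NF-kB, 1.18-fold (0.0487), while Nfyc, Stat3, Creb1 and Irf3 were lower, with log2 fold changes of -0.54, -0.29, -0.33 and -0.29. Irf1, Irf2 and Rfx5 did not pass (0.09, 0.21 and -0.12, edgeR adjusted p = 0.802, 0.328 and 0.563). In double KO against WT the log2 fold changes of Irf1, Rfx5 and Irf2 were -0.13, -0.32 and -0.15, and in Blm KO against WT they were -0.60, -0.05 and -0.20, with none called by edgeR. In double KO relative to Recql KO, Stat3, Irf3, Creb1 and Nfyc were higher, by 0.32 to 0.38 on the log2 scale, and Nfkb1 and Rela lower (-0.41 and -0.27). Of all genes, 24.7% were called there. Without double KO replicate 1 that comparison had 3 higher and 4 lower. By DESeq2 0 of the 17 were called against WT in double KO or Blm KO. In edgeR 0 and 4 had an unadjusted p under 0.05, as had 10.8% and 18.9% of all genes.

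Of the interferon ligands, Ifnb1, Ifng and Ifnk were read, and each was near or below detection. Ifnb1, the interferon beta gene, had 2, 9 and 7 counts in libraries labelled Recql KO and 0 counts in each of the other 9 libraries, where 3 counts correspond to 0.0506 to 0.0570 CPM. Ifng and Ifnk had 0 counts in all 12 libraries, which allows up to 0.0506 to 0.0628 CPM, depending on the library. Of 13 tested genes for interferon receptors, kinases and their regulators, 3 were higher and 2 lower in libraries labelled Recql KO relative to WT, where 29.9% of all genes were called and 14.2% called higher. The receptor chains Ifngr2 (0.74, edgeR adjusted p = 0.00134), Ifngr1 (0.45, edgeR adjusted p = 0.00632) and Il10rb (0.50, edgeR adjusted p = 0.00613) were higher, and the kinase Tyk2 (-0.56, edgeR adjusted p = 0.0142) and the receptor chain Ifnar1 (-0.29, edgeR adjusted p = 0.0484) were lower. In double KO relative to Recql KO, 4 were lower, Ifngr2, Ifngr1, Il10rb and the kinase Jak1 (-0.70, -0.43, -0.46 and -0.29), and none higher. Of all genes, 11.6% were called lower in that comparison. In double KO and Blm KO against WT edgeR and DESeq2 called 0 of the 13, with 3 and 0 at an unadjusted p under 0.05. The same held for 10.8% and 18.9% of all genes.

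Class II presentation, normally a feature of professional antigen-presenting cells, had 3 of 7 tested genes higher and none lower in libraries labelled Recql KO relative to WT. Of all genes, 14.2% were called higher in that comparison. H2-Ab1, a class II beta chain gene, had 7.69, 8.06 and 8.31 CPM in libraries labelled Recql KO, against 0.536, 0.778 and 0.569 CPM in WT (12.7-fold, edgeR adjusted p = 0.000421). H2-DMa and H2-DMb1, which help load class II molecules, were 2.25-fold and 2.38-fold higher (edgeR adjusted p = 0.000967 and 0.0235). The partner alpha chain H2-Aa had a log2 fold change of -0.62 (edgeR adjusted p = 0.686) and the invariant chain Cd74 had -1.58 (edgeR adjusted p = 0.221), while Ciita, the class II transactivator, never exceeded 6 counts; these 3 were named after their values were seen. In double KO relative to Recql KO, H2-Ab1 (-2.997, edgeR adjusted p = 0.000906) and H2-DMa (-1.16, edgeR adjusted p = 0.00112) were lower and none was higher, where 11.6% of all genes were called lower. In double KO and Blm KO against WT edgeR and DESeq2 called 0 of the 7, with 0 and 2 at an unadjusted p under 0.05. The shares of all genes under that threshold were 10.8% and 18.9%.

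Across the 12 libraries the members followed one another. Pearson's r of a member's log2 CPM with the mean of the other standardised members was 0.884 for Tapbp and 0.937 to 0.984 for the other 8, given as a description over 12 libraries in 4 groups. Outside the members, the 10 tested genes with the highest r to the members' mean were Parp11 (0.987), H2-Q5 (0.986), Tlr3 (0.984), H2-Q8 (0.983), Trim30a (0.979), Samd9l (0.979), Ifit3 (0.979), Oas3 (0.977), Oas1c (0.977) and Znfx1 (0.974). Tlr3, a sensor of double-stranded RNA, had 44.0, 43.0 and 41.6 CPM in libraries labelled Recql KO, against 13.4, 14.8 and 9.55 CPM in WT. Ifit3, an interferon-induced antiviral gene, had 57.3 CPM in double KO replicate 1, against 3.06 and 4.75 CPM in the other double KO libraries. These genes were chosen for their likeness to the members in the same libraries, so their pattern is a description.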

How the data were processed

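Gene-level expected counts were deposited for 12 polyadenylated RNA libraries made with a stranded kit. Per the submitters' processing notes the build was mm10 and the tools were Bowtie2 2.1.0 and RSEM 1.2.15. No source used here gave the annotation, strand setting or read length. The authors deposited these estimated counts without scaling, and 17.4% to 20.2% of the values per library were not whole. They were rounded, filtered by group (14876 of 24054 genes, 99.99% of counts), scaled by TMM and tested with edgeR 4.0.16 in R 4.3.3 (robust quasi-likelihood fit of the 4 groups, 8 residual degrees of freedom, two-sided, Benjamini-Hochberg over all genes, called at 0.05). The steps were tested on simulated data. SEs were taken from the fold change and the F statistic. CPM per kb used merged exons of GENCODE M21 basic, which need not be the lengths RSEM used. A count of 3 corresponds to 0.0506 to 0.0628 CPM, which covers counting error only.

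The members and the lists were chosen with earlier results of these data known. Named were all 9 members, the called genes with the lowest adjusted p of each list (up to 4 a list and comparison, or all where 5 or fewer were called in a direction), inducible proteasome genes, Irf1, Rfx5, Irf2, the targeted genes and the 10 genes most correlated with the members (log2 CPM, prior count 2); some genes of this rule and of the marker lists are not reported here. Alternatives were RLE scaling, other filters, DESeq2 1.42.0, fits on the compared groups alone, a replicate block, thinning to the smallest library, Y-linked transcripts as a covariate or limit, and leaving out each library; role lists without double KO replicate 1 were added after seeing the data.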

Additional observations from a re-analysis of the deposited data

Results flagged for a closer look

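For 3 members the log2 difference of double KO from Blm KO differed from that of Recql KO from WT in a test of the difference itself. The interaction was -2.18 for H2-K1, -1.79 for H2-Q4 and -1.32 for Tap2 (edgeR adjusted p = 0.0432, 0.0422 and 0.027). None of the 3 was called without replicate 2 or 3 of Blm KO, without replicate 2 or 3 of Recql KO or without any 1 of the WT libraries. All 3 were called without double KO replicate 1, the high library of its group for the members, whose removal lowers these estimates by construction.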

How the results depend on the processing

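Over 9 members, 6 comparisons and all alternatives, 1022 of 1125 values kept their direction and side of the threshold, 45 calls were lost, 23 were gained and 35 values that were not called changed sign. The 8 calls of Recql KO against WT ranged from 7 to 9 when 1 library was left out, and the 6 of double KO against Recql KO from 5 to 9. The interaction called 3 members, but 1 without a filter, 5 by DESeq2, 1 with the Y-linked covariate, 0 with only libraries high in Y-linked transcripts and 0 to 9 with 1 library left out. Double KO against Blm KO called 0, but 2 by DESeq2 and 0 to 1 with 1 library left out. The cause of these shifts was not tested. With the Y-linked covariate Tap1 had -0.17 in double KO and -0.36 in Blm KO against WT. With only libraries high in Y-linked transcripts, 1 in each KO label, double KO against WT was -0.13 for H2-K1, -0.36 for H2-D1, -0.47 for B2m, -0.90 for Tap1, -0.23 for Tap2 and -1.31 for Nlrc5, Tap1 in Blm KO against WT was -0.10, and double KO against Blm KO was -0.15 for B2m, -0.80 for Tap1, -0.31 for Tap2, -0.44 for Tapbp and -0.21 for Nlrc5. With 1 library left out, double KO against WT ranged from -0.30 to 0.87 for H2-K1, -0.40 to 0.97 for H2-D1, -0.15 to 0.74 for H2-Q4, -0.46 to 0.60 for B2m, -0.36 to 0.60 for Tap1, -0.40 to 0.16 for Tapbp and -0.99 to 1.14 for Nlrc5. Blm KO against WT ranged from -0.33 to 0.019 for H2-D1, -0.18 to 0.18 for H2-T23 and -0.031 to 0.065 for Tap1, and double KO against Blm KO from -0.24 to 1.13 for H2-D1, -0.16 to 0.90 for B2m, -0.38 to 0.59 for Tap1, -0.30 to 0.24 for Tap2 and -0.21 to 0.34 for Tapbp. Replicate numbers did not pair the libraries (5 of 18 same-numbered pairs had deviations correlated over 0.1, range -0.17 to 0.23), and with the replicate block the interaction again called 3 members, losing H2-K1 (edgeR adjusted p = 0.051) and gaining B2m (0.0409). Over all genes, calls in double KO against WT were 18, but 338 by DESeq2 and 0 on those groups alone, and in Blm KO against WT 112, but 968 by DESeq2.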
